A study of Homo sapiens with 2 samples.

Results

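Keratin genes and VIM, the gene of vimentin, were described across 5 lung adenocarcinoma lines. The genes KRT7, KRT8, KRT15, KRT17, KRT18, KRT19, KRT80, KRT81 and VIM were taken by symbol, and these 9 were among 36601 genes in the joint matrix. The peaks were those within 2000 bases of a member's row, and these were 27 of 187920 peaks, of which 25 held at least 100 counts. The members are defined by symbol and position.

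Keratins and vimentin are intermediate filament proteins, which form a flexible network in the cytoplasm. Keratin filaments are obligate pairs of a type I and a type II protein. KRT8 (type II) with KRT18 (type I) is the pair of simple epithelia, KRT7 and KRT19 are found with it in glandular and airway epithelium, and KRT15 and KRT17 are type I keratins of basal cells. KRT81 is a type II keratin best known from hair, and KRT80 is a type II keratin of several epithelia. Vimentin is the filament protein of mesenchymal cells, and carcinoma cells can make it beside keratins.

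The mixture held 5 established human lines from lung adenocarcinoma, which the labels name as H2228, H1975, A549, H838 and HCC827. The labels name no drug or genetic change. The lines were cultured apart in RPMI medium with serum, frozen, and pooled in equal amounts into 1 capture, where every barcode gave an RNA and an ATAC (accessible chromatin) profile. Both libraries analysed came from the fraction holding 80% of that capture, with 1 culture per line. Because each line is 1 sample, no test, p-value or standard error is given, and the 95% intervals cover counting error only.

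Of 3298 barcodes, 2741 were kept and 1952 were given a line by marker genes that include no keratin and not VIM. ATAC clusters put 1931 of these (98.9%) in the same line. The A549-like line (690 barcodes) had all 7 checked A549 genes highest, and the HCC827-like line (246 barcodes) all 5 checked HCC827 genes. The markers did not settle which of H838, H1975 and H2228 the other lines were, so they are called by leading genes: the S100A9/CST1 line (333 barcodes), the SLC30A8/MAGEA10 line (473) and the DHRS2/ZNF676 line (210). Values below follow the order A549-like, S100A9/CST1, SLC30A8/MAGEA10, HCC827-like and DHRS2/ZNF676, unless lines are named. Summed depth was 4011486 to 6762863 RNA molecules (UMIs) and 4741980 to 21797251 peak counts per line. Barcodes differed in depth, with medians of 4720, 14019, 7766, 13319 and 14367.5 UMIs, and in mitochondrial share, with medians of 0.428%, 8.95%, 0.444%, 14.4% and 11.9%. RNA levels are UMIs scaled to the line's total (CPM), and a member is called higher or lower where CPM + 1 is at least 2-fold above or below the mean of the other 4 lines + 1. The epithelial cadherin CDH1 was at 72.3 to 346 CPM in 4 lines and at 11.2 CPM (55 UMIs) in the SLC30A8/MAGEA10 line. That low level was not told from free RNA in the droplets, since S100A9, a marker of another line, stood at 37.2 CPM there against 689.6 in its own line.

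The windows of the RefSeq promoter table (GRCh38.p14, 250 bases before to 50 after a start) held 2 of the 9 members, VIM and KRT8. They are shown because the peaks described below lie beside them, with the window of VIM-AS1, an antisense gene whose window overlaps a VIM peak. Capitals mark a GC box (GGGCGG) in the VIM genes and the letters of a TEAD site (GGAATG) in KRT8, searched on both strands.
VIM (chr10:17227991-17228290, plus strand): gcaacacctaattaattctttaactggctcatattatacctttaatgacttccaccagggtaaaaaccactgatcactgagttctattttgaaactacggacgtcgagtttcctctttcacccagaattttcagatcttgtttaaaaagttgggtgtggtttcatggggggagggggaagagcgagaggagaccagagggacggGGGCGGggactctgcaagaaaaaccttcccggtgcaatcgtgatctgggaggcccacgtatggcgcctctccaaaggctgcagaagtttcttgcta
VIM-AS1 (chr10:17229936-17230235, minus strand): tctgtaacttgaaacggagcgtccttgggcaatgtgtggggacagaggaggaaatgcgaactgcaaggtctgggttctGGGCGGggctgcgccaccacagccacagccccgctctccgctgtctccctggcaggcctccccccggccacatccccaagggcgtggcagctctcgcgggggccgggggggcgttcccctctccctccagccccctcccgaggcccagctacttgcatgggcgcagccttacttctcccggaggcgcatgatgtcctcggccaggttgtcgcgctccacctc
KRT8 (chr12:52926420-52926719, minus strand): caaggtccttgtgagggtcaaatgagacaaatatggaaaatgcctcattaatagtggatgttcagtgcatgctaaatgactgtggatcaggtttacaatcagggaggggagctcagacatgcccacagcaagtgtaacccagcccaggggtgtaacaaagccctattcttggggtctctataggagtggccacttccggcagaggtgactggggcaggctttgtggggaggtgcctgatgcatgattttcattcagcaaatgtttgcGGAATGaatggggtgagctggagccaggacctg
The GC box was found in 45.0% of 35116 promoters in the table and the TEAD letters in 14.0%, and a match describes letters, not a bound site. None of the 3 windows held TATAAA (11.5% of promoters), TGANTCA (7.71%) or CACCTG (20.6%).

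Most keratins were low in the SLC30A8/MAGEA10 line, in which 7 of the 8 were lower than the mean of the other lines and KRT17 was higher. In that line 7 of the 9 members were lower, where 21.4% of 19220 measured genes were lower, and 1 was higher, where 13.4% of genes were. The median log2 ratio was -1.74 over the members and -0.04 over all genes. The A549-like line had 1 member higher (11.4% of genes) and 4 lower (16.6%), and the S100A9/CST1 line 2 higher (9.89%) and 2 lower (20.1%). The HCC827-like line had 2 higher (6.88%) and 3 lower (20.6%), and the DHRS2/ZNF676 line 1 higher (6.59%) and 2 lower (14.6%). A gene that is very high in 1 line raises the mean for all others, and KRT81 and KRT17 are the 2 lower members of both the S100A9/CST1 and DHRS2/ZNF676 lines. KRT81 is likewise 1 of the 7 in the SLC30A8/MAGEA10 line.

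**Figure D1:**
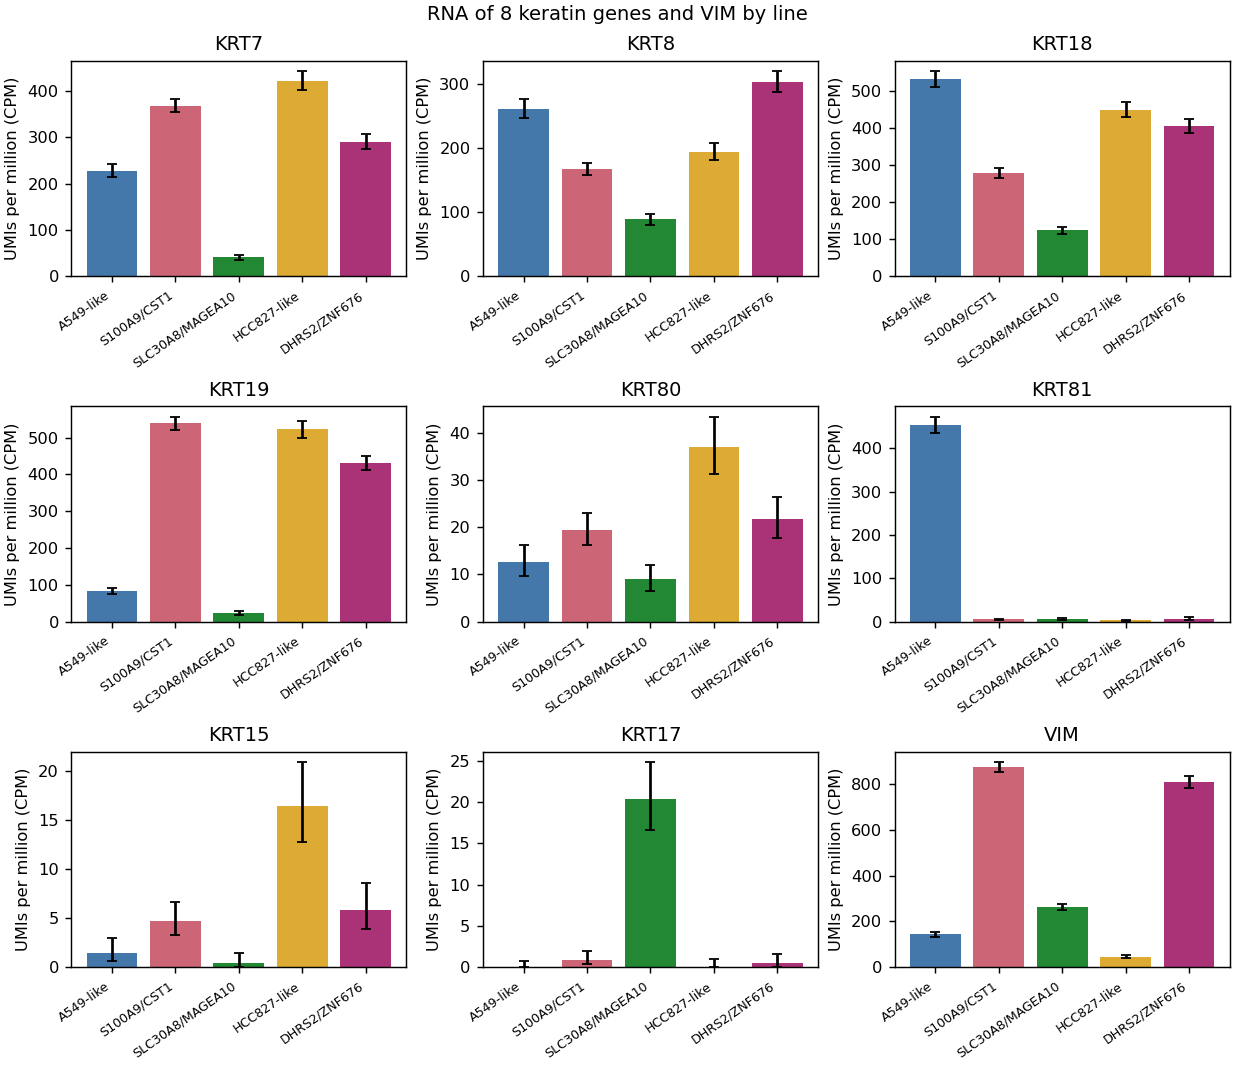
RNA level of each member (CPM, vertical axes, each panel with its own scale from 0) in the 5 lines; bars are the summed UMIs of a line and error bars the exact Poisson 95% interval. KRT81 stands at 453 CPM in the A549-like line and at most 6.74 CPM elsewhere, and VIM at 874 and 811 CPM in the S100A9/CST1 and DHRS2/ZNF676 lines and at most 262 CPM elsewhere.

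KRT8, the type II partner of the simple epithelial pair, was at 261 CPM (247 to 276), 167 (157 to 177), 88.7 (80.6 to 97.5), 194 (181 to 208) and 303 (287 to 319) in the 5 lines. No neighbours in this order had overlapping intervals, and the highest line was 3.42 times the lowest. KRT18, its type I partner, was at 532 CPM (512 to 553), 278 (265 to 291), 124 (114 to 134), 449 (428 to 470.2) and 404 (386 to 423). Both partners were called lower in the SLC30A8/MAGEA10 line, with log2 ratios of -1.37 for KRT8 and -1.74 for KRT18, and in no other line was either called. The line with the highest level was not fixed for either gene. KRT18 was highest in the HCC827-like line under TMM scaling, and KRT8 in the A549-like line in barcodes with at most 2% mitochondrial UMIs and also in those over 2%. KRT8 and KRT18 have many processed pseudogenes, so reads may be shared and their values are uncertain to that extent.

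KRT7, a type II keratin of glandular epithelium, was at 228 CPM (215 to 242), 368 (354 to 383), 40.9 (35.4 to 47.0), 422 (402 to 442) and 290.1 (275 to 306). No intervals of neighbouring lines overlapped. The log2 ratio in the SLC30A8/MAGEA10 line was -2.97, and the HCC827-like level was 10.3 times the level there. KRT19, a type I keratin without the usual tail domain, fell into a high and a low set of lines: it was at 539 CPM (522 to 557), 522 (500.1 to 545) and 430.1 (411 to 449) in the S100A9/CST1, HCC827-like and DHRS2/ZNF676 lines, and at 84.0 (76.1 to 92.5) and 23.5 (19.4 to 28.2) in the A549-like and SLC30A8/MAGEA10 lines. The log2 ratios of the low lines were -2.16 and -4.01. The intervals of the S100A9/CST1 and HCC827-like lines overlapped, so their order is not resolved. The S100A9/CST1 line passed the 2-fold call at a log2 ratio of 1.02, and the HCC827-like line missed it at 0.95. These calls were not stable: the S100A9/CST1 call was lost with ATAC clusters (0.90), RNA clusters (0.84), mixed barcodes kept (0.81), no mitochondrial limit (0.88), no doublet removal (0.998), totals without mitochondrial UMIs (0.96) and on either side of 2% mitochondrial UMIs (0.67 and 0.91). The HCC827-like line passed with ATAC clusters (1.03), RNA clusters (1.08), no mitochondrial limit (1.09), TMM (1.08), the mean of barcode CPM (1.05), totals without mitochondrial UMIs (1.02) and at or under 2% (1.27).

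KRT81 was nearly confined to the A549-like line in these barcodes. It was at 453 CPM (435 to 473) there and at 5.18 (3.61 to 7.20), 6.13 (4.14 to 8.75), 2.74 (1.37 to 4.91) and 6.74 (4.58 to 9.57) in the others, whose intervals overlapped in each neighbouring pair. The log2 ratio was 6.20. When every barcode was thinned to 3000 UMIs, 65.5% of A549-like barcodes (61.5% to 69.4%) held a KRT81 UMI, and 1.49% to 3.37% in the other lines; unthinned, the shares were 79.1% and 3.66% to 9.61%. Thinning left out 113 A549-like barcodes and 1, 4, 4 and 2 of the others as too shallow. The low level elsewhere was not told from free RNA in the droplets. KRT86, a near-identical hair keratin whose RefSeq span covers KRT81, was at 20.1, 9.76, 4.70, 12.0 and 8.26 CPM, and reads could be split between these genes.

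KRT80 and KRT15 were highest in the HCC827-like line. KRT80 was at 12.6 CPM (9.64 to 16.1), 19.4 (16.2 to 23.0), 8.99 (6.54 to 12.1), 36.9 (31.2 to 43.3) and 21.7 (17.7 to 26.4), with log2 ratios of 1.18 in the HCC827-like and -1.24 in the SLC30A8/MAGEA10 line. KRT15, a basal cell keratin, was at 1.42 CPM (0.57 to 2.93), 4.73 (3.24 to 6.68), 0.41 (0.050 to 1.48), 16.5 (12.7 to 20.9) and 5.87 (3.87 to 8.54). KRT15 rests on 66 UMIs in the HCC827-like line and on 2 in the SLC30A8/MAGEA10 line, so its low levels are near the limit of the depth. KRT17, a keratin of basal and stressed epithelium, was highest in the line where KRT80 and KRT15 were lowest: it had 100 UMIs and 20.4 CPM (16.6 to 24.9) in the SLC30A8/MAGEA10 line, 6 UMIs in the S100A9/CST1 line, 2 in the DHRS2/ZNF676 line and 0 in the A549-like and HCC827-like lines, which allows up to 0.61 and 0.75 CPM. Its log2 ratio was 4.01, and 66 of the 473 barcodes of that line (13.9%, 11.0% to 17.4%) held a UMI.

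VIM, the vimentin gene, was highest in the S100A9/CST1 and DHRS2/ZNF676 lines. It was at 144 CPM (133 to 155), 874 (852 to 896), 262 (247 to 276), 43.9 (37.6 to 50.9) and 811 (785 to 838), and no intervals of neighbouring lines overlapped. The log2 ratios were 1.47 and 1.29 in the high lines, -1.79 in the A549-like line and -3.54 in the HCC827-like line. Thinned to 3000 UMIs, 31.2%, 73.5%, 47.1%, 15.3% and 81.3% of barcodes held a VIM UMI, and unthinned 47.7%, 95.2%, 79.9%, 43.5% and 93.3%. Markers of other cells that also make vimentin were looked at beside this. Of 6 fibroblast genes, summed to 8.11, 126, 6.75, 10.2 and 159 CPM, COL1A1 was at 7.10, 124, 5.93, 3.24 and 92.4 CPM, and COL1A2 was at 62.4 CPM in the DHRS2/ZNF676 line and at most 1.99 elsewhere. PDGFRB was at 4.13 CPM in the DHRS2/ZNF676 line and at most 0.30 elsewhere, DCN was at 0 in every line, and COL3A1 was at 0 in all but the HCC827-like line. Of 6 endothelial genes, PECAM1 reached 101 CPM in the S100A9/CST1 line, and VWF was at most 0.87 CPM. The 6 immune genes summed to at most 18.9 CPM and the 3 red cell genes were at 0; their part in the VIM levels was not tested.

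Levels of most keratins and of VIM differed with the mitochondrial share of the barcodes, which was split at 2% after the data were seen. The share of barcodes at or under 2% was 85.7%, 6.61%, 64.1%, 11.4% and 35.7%. In the A549-like line KRT18 was at 308 CPM at or under 2% and 903 over it, KRT8 at 181 and 394, and KRT19 at 45.9 and 147. KRT81 was at 466 CPM (442 to 490.5) and 433 (404 to 464) in the same barcodes, with overlapping intervals. KRT7 was 4.07 times higher over 2% in the DHRS2/ZNF676 line (78.0 and 317 CPM) and 3.75 times in the S100A9/CST1 line (100.2 and 375 CPM). VIM was at 507 and 883 CPM in the S100A9/CST1 line and at 634 and 834 in the DHRS2/ZNF676 line. In the SLC30A8/MAGEA10 line the log2 ratios at or under 2% and over 2% were -2.04 and -3.05 for KRT7, -1.01 and -1.36 for KRT8, -1.19 and -1.85 for KRT18, -2.45 and -4.43 for KRT19, and 4.06 and 4.21 for KRT17, all past 2-fold in both kinds of barcode. KRT80 there passed it only over 2%, at -1.53 against -0.82. VIM in the S100A9/CST1 line was called only over 2%, at 1.37 against 0.99 at or under it, where 22 barcodes remained. KRT7 in the DHRS2/ZNF676 line was past 2-fold lower only at or under 2%, at -1.02 against 0.18, and KRT7 in the HCC827-like line past 2-fold higher only there, at 1.52 against 0.75. KRT18 in the A549-like line passed 2-fold only over 2%, at 1.46 against 0.84. KRT15 in the A549-like line was called lower at or under 2% (-2.14) and not over it (-0.91). It had only 1 and 6 UMIs there, and 2 in the HCC827-like line at or under 2%, so this change is not resolved. The part of the mitochondrial share in the levels was not tested.

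**Figure D2:**
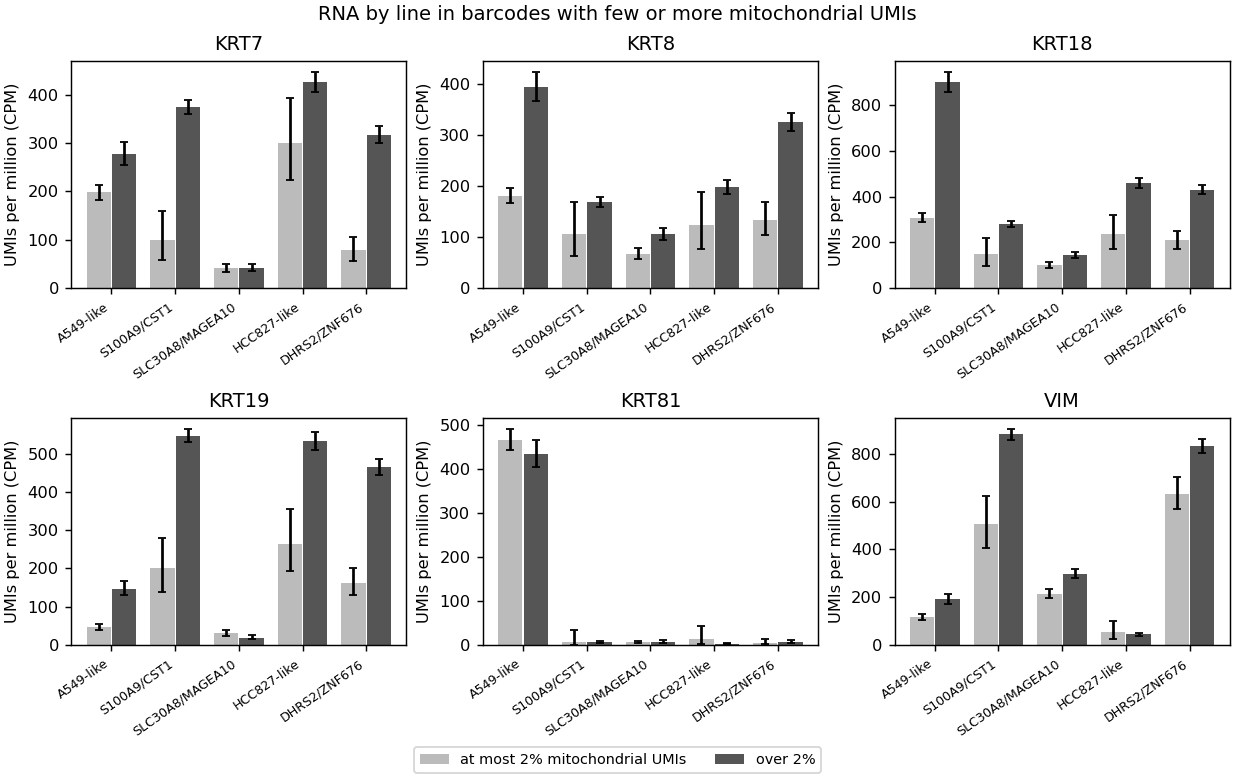
RNA level (CPM, vertical axes from 0) of KRT7, KRT8, KRT18, KRT19, KRT81 and VIM by line, in barcodes with at most 2% (light bars) and over 2% (dark bars) mitochondrial UMIs; error bars are exact Poisson 95% intervals. KRT18 in the A549-like line stands at 308 and 903 CPM, and KRT81 there at 466 and 433 CPM.

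The balance between vimentin and the simple epithelial keratins was given per line as the share of VIM in the summed UMIs of VIM, KRT7, KRT8, KRT18 and KRT19. It was 11.5% (10.7% to 12.3%), 39.3% (38.5% to 40.0%), 48.6% (46.7% to 50.5%), 2.69% (2.31% to 3.11%) and 36.2% (35.3% to 37.2%). Over all barcodes the SLC30A8/MAGEA10 line had the largest share, with a VIM level below that of the S100A9/CST1 and DHRS2/ZNF676 lines and the lowest level of each of the 4 keratins. At or under 2% mitochondrial UMIs the DHRS2/ZNF676 line had 52.2% (48.2% to 56.1%). Beside it stood 47.6% (44.4% to 50.9%) in the SLC30A8/MAGEA10 line and 47.8% (40.3% to 55.3%) in the S100A9/CST1 line. These intervals overlapped, so the order there is not resolved. The share was also read in single barcodes with at least 10 such UMIs. Its 10th to 90th percentile was 5.21% to 64.1% in the S100A9/CST1 line (315 barcodes), 14.8% to 60.4% in the DHRS2/ZNF676 line (138), 26.8% to 68.4% in the SLC30A8/MAGEA10 line (76), 0% to 20.0% in the A549-like line (111) and 0% to 9.52% in the HCC827-like line (191). Shares from few UMIs vary by counting alone, and most barcodes of the A549-like and SLC30A8/MAGEA10 lines had too few to enter. Over 2% mitochondrial UMIs, 77 of 308 S100A9/CST1 barcodes had a VIM share under 20%, 92 lay between 20% and 40%, 95 between 40% and 60%, and 38 between 60% and 80%.

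**Figure D3:**
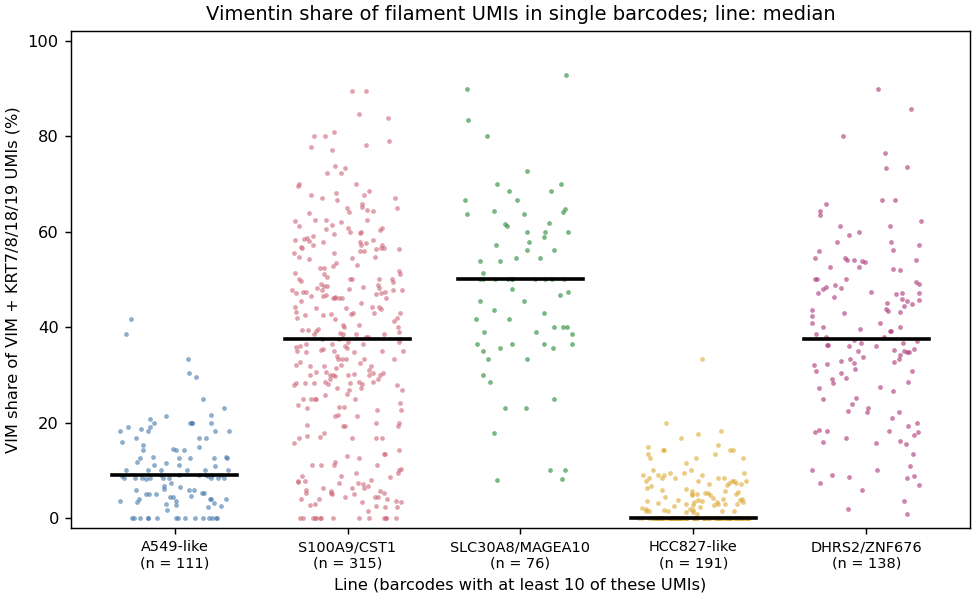
Share of VIM among the UMIs of VIM, KRT7, KRT8, KRT18 and KRT19 (percent, vertical axis) in single barcodes with at least 10 such UMIs, by line; points are barcodes and bars the medians. 77 of 315 S100A9/CST1 points and 189 of 191 HCC827-like points lie under 20%.

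Within the S100A9/CST1 line, barcodes with more VIM had less RNA of the adhesion gene CDH1. Over the 311 barcodes with over 2% mitochondrial UMIs, the correlation (Pearson's r of log-scaled levels) of VIM was -0.66 with CDH1 (E-cadherin), -0.58 with GRHL2, a transcription factor of epithelial cells, and 0.37 with ZEB1, a repressor of epithelial genes. With the desmosome genes DSC2, PKP3, JUP and DSP it was weaker, at -0.24, -0.20, -0.16 and -0.09. It was 0.11 with the log2 of total UMIs and -0.03 with the mitochondrial share. In the DHRS2/ZNF676 line (135 barcodes) the values with CDH1, GRHL2 and ZEB1 were -0.50, -0.50 and 0.46. Those with DSC2, PKP3, JUP and DSP were -0.31, -0.16, -0.08 and 0.07. In the HCC827-like line (218 barcodes) CDH1, GRHL2 and ZEB1 had -0.21, -0.18 and 0.27. The A549-like line (99 barcodes) had -0.22, -0.09 and -0.06. The SLC30A8/MAGEA10 line (170 barcodes) had -0.05, -0.04 and -0.06, with 31 CDH1 and 9 GRHL2 UMIs. With the mitochondrial share VIM had r of -0.27 in the HCC827-like line, 0.26 in the SLC30A8/MAGEA10 line, 0.13 in the DHRS2/ZNF676 line and -0.02 in the A549-like line. With lines taken from ATAC clusters, VIM had r = -0.59 with CDH1, -0.53 with GRHL2 and 0.27 with ZEB1 in the S100A9/CST1 line (456 barcodes). In the DHRS2/ZNF676 line by ATAC clusters (313 barcodes) these were -0.46, -0.46 and 0.21. The ATAC groups also hold barcodes that the markers gave no line, and more RNA of other lines. ALDH1A1, an A549 gene, had 2020 UMIs in the DHRS2/ZNF676 line by ATAC clusters and 44 by markers. In the S100A9/CST1 line it had 1060 and 76. In those 311 barcodes the keratins had weaker correlations with VIM than CDH1 had, with r of -0.26 for KRT19 and -0.01 for KRT8. Among themselves the keratins were correlated in the DHRS2/ZNF676 line (r of 0.40 to 0.63 over the 6 pairs of KRT7, KRT8, KRT18 and KRT19) and in the HCC827-like line (0.33 to 0.52), in the same kind of barcode. They were lower in the S100A9/CST1 line (0.14 to 0.40) and the SLC30A8/MAGEA10 line (-0.09 to 0.21). In the A549-like line they ran from 0.01 to 0.70 over 99 barcodes, the highest being KRT8 with KRT18, a pair that had r = 0.25 over all 690 barcodes of the line. Barcodes share a library and are not replicates, so these are descriptions without a test. S100A9, itself a marker that gave barcodes to the S100A9/CST1 line, had r = -0.50 with VIM there.

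Accessible chromatin at the members was counted in the same barcodes. In the SLC30A8/MAGEA10 line 13 of 25 peaks were lower (28.5% of 94264 peaks) and 2 higher (8.70%), and the median log2 ratio was -1.27 over these peaks and -0.34 over all. The A549-like line had 5 higher (9.29%) and 6 lower (29.6%), the S100A9/CST1 line 1 (14.1%) and 4 (14.7%), the HCC827-like line 5 (9.67%) and 3 (20.0%), and the DHRS2/ZNF676 line 1 (11.6%) and 0 (13.1%). Peak levels are CPM of the line's peak counts, and 83.3% of non-zero entries were even, so intervals were computed on counts divided by 2.

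**Figure D4:**
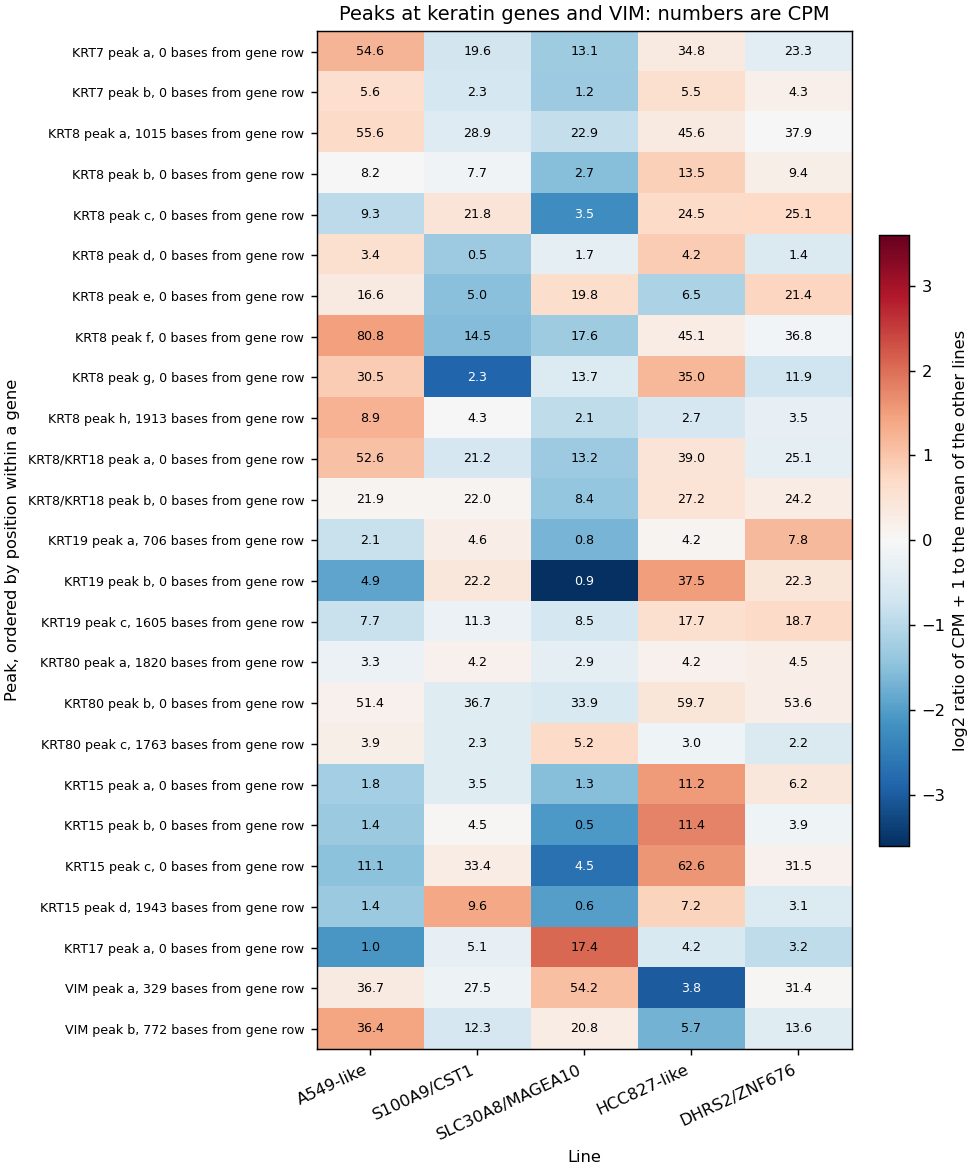
Peak levels at the members in the 5 lines (columns); rows are the 25 peaks with at least 100 counts, lettered by position within a gene, with the distance to the gene's row, printed numbers are peak levels (CPM) and colour is the log2 ratio of CPM + 1 to the mean of the other lines. The KRT19 peak over its start reads 4.9, 22.2, 0.9, 37.5 and 22.3 CPM, and the first VIM peak 36.7, 27.5, 54.2, 3.8 and 31.4 CPM.

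The KRT19 peak at its start (chr17:41527968-41528831, GRCh38) was at 4.86 CPM (3.64 to 6.36), 22.2 (19.1 to 25.7), 0.90 (0.27 to 2.2), 37.5 (30.1 to 46.2) and 22.3 (18.2 to 27.1), and so the same 3 lines were high as in the RNA. The KRT15 peak chr17:41521537-41522413 was at 11.1, 33.4, 4.51, 62.6 and 31.5 CPM. The KRT17 peak chr17:41624315-41625210 was highest in the SLC30A8/MAGEA10 line, at 17.4 CPM (13.9 to 21.4), against 0.96 to 5.10 in the others. KRT15, KRT17 and KRT19 lie together in the type I keratin cluster of chromosome 17, and within it the KRT17 peak had another highest line than the KRT15 and KRT19 peaks.

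At the type II genes on chromosome 12, the KRT7 start peak (chr12:52232679-52233592) was at 54.6, 19.6, 13.1, 34.8 and 23.3 CPM. The KRT8 peak chr12:52927031-52927945, 312 bases from the KRT8 window, was at 80.8, 14.5, 17.6, 45.1 and 36.8 CPM. KRT8 peak chr12:52904702-52905602, which lies 1015 bases outside the KRT8 row, was at 55.6, 28.9, 22.9, 45.6 and 37.9 CPM, with no line called. KRT8 has 12 peaks within 2000 bases of its row, and which of them marks the start in use was not tested. The first of 2 peaks shared by the KRT8 and KRT18 rows (chr12:52948536-52949377) was at 52.6, 21.2, 13.2, 39.0 and 25.1 CPM. The second (chr12:52949654-52950414) was at 21.9, 22.0, 8.43, 27.2 and 24.2 CPM, and was called only in the SLC30A8/MAGEA10 line, as lower. KRT8 peak chr12:52945469-52946371 was at 2.28 CPM (1.37 to 3.56) in the S100A9/CST1 line and 11.9 to 35.01 elsewhere. The A549-like line was high over the whole region: the other peaks within 500000 bases of the first shared peak summed to 2049 CPM there and to 1219 to 1349 in the others. Relative to these, the first shared peak was highest in the HCC827-like line, at 43.9 against 37.0 in the A549-like line. The KRT80 start peak (chr12:52191827-52192736) ranged from 33.9 CPM (29.0 to 39.4) in the SLC30A8/MAGEA10 line to 59.7 (50.3 to 70.4) in the HCC827-like line. These were the lowest and highest lines in the RNA too, but the peak was called in no line. The intervals overlapped those of the S100A9/CST1 line (32.7 to 41.0) and the DHRS2/ZNF676 line (47.1 to 60.8), so the order is not resolved. Under TMM scaling the A549-like line was highest, and relative to the other peaks within 500000 bases it was lowest, at 38.0. KRT81 has no peak within 2000 bases. The nearest lies 2735 bases away (chr12:52287857-52288779) and was at 16.5, 0.78, 1.81, 1.48 and 3.05 CPM, highest in the line with the KRT81 RNA. It lies within the RefSeq spans of KRT81 and KRT86.

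The first VIM peak (chr10:17228330-17228948) begins 40 bases after the end of the VIM window printed above. It was at 36.7 CPM (33.2 to 40.5), 27.5 (24.1 to 31.3), 54.2 (47.9 to 61.0), 3.80 (1.74 to 7.21) and 31.4 (26.5 to 37.0). The second (chr10:17230051-17230925), which overlaps the VIM-AS1 window, was at 36.4, 12.3, 20.8, 5.69 and 13.6 CPM. By CPM, both were lowest in the HCC827-like line, where VIM RNA was lowest too. The 2 lines with the highest VIM RNA did not have the highest peaks. The region was also uneven, with 163 to 472 CPM in the other peaks within 500000 bases, lowest in the HCC827-like line. Relative to these the first peak was highest in the A549-like line and still lowest in the HCC827-like line, at 7.88. The second peak was then lowest in the DHRS2/ZNF676 line, at 10.7, beside 11.8 in the HCC827-like and 11.9 in the S100A9/CST1 line. VIM-AS1 RNA was at 6.08, 5.03, 6.34, 0.75 and 7.39 CPM; whether the counting used strand is not given in the sources used here.

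Lists of genes that go with these filaments were read the same way. Of 47 other keratin rows, 30 had no UMI and 6 were measured; KRT10, a keratin of differentiating epidermis, was at 22.2 to 39.0 CPM in all lines. Of 17 measured genes for desmosomes and filament linkers, with the epithelial cadherin CDH1 counted among them, 9 were lower in the SLC30A8/MAGEA10 line (21.4% of all genes were) and 0 higher (13.4%). In the HCC827-like line 5 were higher (6.88%) and 0 lower (20.6%). The median log2 ratios in these lines were -1.16 and 0.26, beside -0.04 and -0.35 over all genes. CDH1, which is not a desmosome gene or filament linker, is in both the 9 and the 5, at -3.65 and 2.31. The A549-like line had 1 higher (11.4% of all genes) and 1 lower (16.6%). The S100A9/CST1 line had 0 (9.89%) and 2 (20.1%), and the DHRS2/ZNF676 line 1 (6.59%) and 2 (14.6%). CDH1 was at 87.6, 72.3, 11.2, 346 and 104 CPM, JUP (plakoglobin) at 121, 45.0, 7.77, 62.1 and 27.8 CPM, the desmosomal cadherin DSC2 at 10.1, 13.6, 1.84, 80.3 and 23.7 CPM, and EVPL (envoplakin) at 18.3, 9.91, 0.20, 21.2 and 13.7 CPM.

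Of 12 measured regulators, 6 were lower (21.4% of all genes) and 2 higher (13.4%) in the SLC30A8/MAGEA10 line, with a median log2 ratio of -1.05 beside -0.04 over all genes. The share higher was near that of all genes. The A549-like line had 2 higher (11.4% of all genes) and 3 lower (16.6%), and the S100A9/CST1 line 1 (9.89%) and 3 (20.1%). The HCC827-like line had 2 (6.88%) and 4 (20.6%), and the DHRS2/ZNF676 line 2 (6.59%) and 3 (14.6%). TP63, a basal cell factor, was at 220.1, 61.8, 0.41, 22.4 and 75.5 CPM, with 2 UMIs in the SLC30A8/MAGEA10 line. GRHL2 was at 2.45 CPM there against 13.4 to 265 in the others, and ELF3, a factor of epithelial differentiation, at 2.45 CPM against 21.5 to 261. ZEB2, a repressor of epithelial genes, was at 48.3, 52.6, 62.3, 2.99 and 24.1 CPM.

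Of 9 measured genes of other filaments, with the filament-binding EPPK1 and FLG counted among them, 0 were higher (11.4% of all genes) and 3 lower (16.6%) in the A549-like line. The S100A9/CST1 line had 0 higher (9.89%) and 5 lower (20.1%), and the SLC30A8/MAGEA10 line 2 (13.4%) and 2 (21.4%). The HCC827-like line had 0 (6.88%) and 5 (20.6%), and the DHRS2/ZNF676 line 2 (6.59%) and 0 (14.6%). The higher genes include FLG in the SLC30A8/MAGEA10 line (log2 ratio 2.49) and EPPK1 in the DHRS2/ZNF676 line (1.65), which do not form filaments themselves. NES (nestin) was at 2.23, 21.1, 1.43, 1.00 and 49.8 CPM, highest in the 2 lines with the highest VIM, and SYNM (synemin) at 23.7, 11.8, 58.7, 6.73 and 17.0 CPM. EPPK1 (epiplakin), which binds keratin filaments, was at 0.41, 2.96, 0, 5.23 and 8.92 CPM, and FLG (filaggrin) at 0.20, 0, 6.13, 0 and 0.87 CPM, with 30 UMIs in the SLC30A8/MAGEA10 line.

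By the distance of centred log2 levels over the 5 lines, among 13553 genes with at least 10 CPM in some line, the gene most like KRT18 was BDNF (0.09), most like KRT8 DENND6B (0.21), most like KRT19 CADPS2 (0.29) and most like KRT81 TM4SF20 (0.36). TM4SF20 was at 220 CPM in the A549-like line and at most 3.27 CPM elsewhere. For VIM the nearest was TOR4A at 0.77.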

How the data were processed

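One RNA library and 1 ATAC library from the same barcodes were analysed. The authors deposited 1 joint table of whole-number counts (tool Cell Ranger ARC 2.0.0 and build GRCh38 per the submitters' processing notes): UMIs per gene and counts per peak, not normalised. The other deposited values are the positions of genes and peaks, per the file headers. Strand use, cell calling and peak calling are not stated in the labels or file headers, and 0 columns of per-sample values were left unused.

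Barcodes with at least 1000 UMIs, 500 genes and 1000 peak counts and at most 20% mitochondrial UMIs passed (2804 of 3298), and 63 likely doublets (Scrublet, scanpy 1.11.5) were removed. A line needed at least 3 marker UMIs with 80% from its own markers; 381 barcodes had too few and 408 had markers of several lines. Counts were summed per line; genes needed 20 UMIs and peaks 100 counts to enter the background. Log2 ratios are of CPM + 1, which understates low genes. Intervals are exact Poisson for sums and Clopper-Pearson for shares, and a count of 0 allows 3. All 9 members and all 25 measured peaks were reported. From the lists, the keratins of at least 10 CPM and the 4 genes with the largest ratio between lines were named. ZEB1, S100A9, DSP, PKP3 and the single marker genes were named after their values were seen. Members, markers and lists were chosen with earlier results of these data known. Alternatives were ATAC or RNA clusters, marker purity, leaving out the most abundant marker, no mitochondrial limit, no doublet removal, TMM (edgeR 4.0.16, R 4.3.3), mean barcode CPM, totals without mitochondrial UMIs, CPM + 0.1, binarised peaks, scaling to peaks within 500000 bases, a 500-base flank and no count minimum. The scripts were tested on simulated data.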

Additional observations from a re-analysis of the deposited data

How the results depend on the processing

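Over 14 alternatives for the genes and 16 for the peaks, including the 2 mitochondrial splits chosen after seeing the data, the pairs of member and line called higher numbered 6 to 9 genes (7 reported) and 10 to 16 peaks (14 reported), and those called lower 17 to 20 genes (18) and 22 to 36 peaks (26). All these counts were within 1.5 times the reported ones and no called value changed sign. TMM shifted the log2 ratio of the median gene by -0.15, 0.12, -0.12, 0.17 and -0.02 in the 5 lines. Of 45 pairs of member gene and line, 12 changed their call under at least 1 of 13 alternatives, all of KRT7, KRT15, KRT18, KRT19, KRT80 or VIM. The line with the highest RNA level changed under some settings for KRT18, KRT19, KRT8 and VIM and for no other member: VIM was highest in the DHRS2/ZNF676 line at or under 2% mitochondrial UMIs. No paired analysis was possible because each line is 1 sample of 1 library. KRT15 and KRT17 rest on at most 100 UMIs per line, which limits their precision. Barcodes given no line (789) could hold lines in other proportions.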

Other observations

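In the S100A9/CST1 line, among 4412 genes ranked by their correlation with VIM over 311 barcodes, the lowest were MIR205HG (r = -0.67), the host gene of an epithelial microRNA, EPCAM (-0.66), an epithelial adhesion protein, CDH1 (-0.66), ESRP1 (-0.65), an epithelial splicing factor, TMPRSS4 (-0.65) and AGR2 (-0.63). The highest were the non-coding RNA genes MEG3 (0.62) and MEG8 (0.55), FN1 (fibronectin, 0.60), CLDN11 (0.56), EEF1A1 (0.55) and MRC2 (0.52). In the DHRS2/ZNF676 line (135 barcodes, 3029 genes) the lowest included CDH1 and GRHL2 (both -0.50) and EPCAM (-0.48), and the highest was ITGB1, an integrin subunit (0.56). These genes were chosen after their values were seen, and the correlations describe barcodes of 1 library.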
